A study of Mus musculus with 12 samples.

Results

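The metallothioneins described here are Mt1, Mt2 and Mt3, chosen by gene symbol from the 45906 genes of the deposited count table, and all 3 passed the filter on low counts that left 20155 genes. Their levels were read from RNA-seq of whole spinal cords of 12 mice, aged 7 months and on a C57BL/6 background, with 3 mice per genotype. The 4 genotypes were Plekhg5+/+ and Plekhg5-/-, each without a transgene, and the same pair with the transgene of the "low copy" SOD1-G93A line, written here as Plekhg5+/+ SOD1-G93A for the former and Plekhg5-/- SOD1-G93A for the latter. This transgene is human SOD1 with a mutation of amyotrophic lateral sclerosis (ALS). The comparisons ask how spinal cord RNA differs with the transgene and whether it differs when Plekhg5, a guanine exchange factor of motoneuron autophagy, is missing.

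The libraries held 30415643 to 38743628 counts. Plekhg5 stood at 22.9 ± 3.08 and 22.4 ± 2.19 CPM (counts scaled to library size; SD, n = 3) in Plekhg5+/+ and Plekhg5+/+ SOD1-G93A mice and at 3.98 ± 0.712 and 4.26 ± 0.413 CPM in the Plekhg5-/- genotypes, so that reads of the gene were still counted in the deficient mice. Human SOD1 stood at 4421 to 5638 CPM in the transgenic libraries and at 5.47 CPM or less in the others. Y-linked transcripts were found in 3 of 3 Plekhg5+/+, 2 of 3 Plekhg5-/-, 2 of 3 Plekhg5+/+ SOD1-G93A and 1 of 3 Plekhg5-/- SOD1-G93A libraries, so sex was not balanced between the genotypes.

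Metallothioneins are small, cysteine-rich proteins that hold zinc and copper in metal-thiolate clusters. Mt1 and Mt2 are made in many tissues and are induced by metals, glucocorticoids, cytokines and oxidative stress, with the factor MTF-1 acting on metal response elements of their promoters. Mt3 is the brain form of the family and responds little to metals. In the central nervous system Mt1 and Mt2 are known mainly from astrocytes, and Mt3 from astrocytes and some neurons. They are of interest beside SOD1 because superoxide dismutase 1 is itself a copper and zinc enzyme.

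The 3 genes lay on the plus strand of chromosome 8 of GRCm38.p6, within 27721 bases of one another. Mt3 ran from 94152607 to 94154148, Mt2 from 94172618 to 94173567 and Mt1 from 94178883 to 94180327. Mt4, the epithelial member of the family, lay before them from 94137204 to 94139031. It had at most 0.25 counts in any library, as reads with several matches were counted as fractions, and it was not tested. The neighbours on either side were Bbs2, with 812 to 1022 counts, and Nup93, with 1143.5 to 1528.5 counts. The long non-coding genes Gm39226, Gm39227 and Gm39228 in the same stretch had at most 7 counts each.

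The coding sequences of the first GENCODE transcript of each gene (GENCODE M21, GRCm38) are given here because they hold the feature that defines the family. Capitals mark the codons TGC and TGT, which encode cysteine.
Mt1-201: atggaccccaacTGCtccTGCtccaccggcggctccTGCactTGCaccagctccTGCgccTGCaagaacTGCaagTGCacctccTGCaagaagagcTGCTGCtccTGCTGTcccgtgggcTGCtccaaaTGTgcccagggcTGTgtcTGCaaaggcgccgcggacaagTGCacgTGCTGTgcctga
Mt2-201: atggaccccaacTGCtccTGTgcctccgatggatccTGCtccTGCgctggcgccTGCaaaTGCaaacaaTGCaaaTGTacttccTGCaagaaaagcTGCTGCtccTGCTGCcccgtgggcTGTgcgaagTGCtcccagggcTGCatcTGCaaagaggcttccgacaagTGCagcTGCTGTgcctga
Mt3-201: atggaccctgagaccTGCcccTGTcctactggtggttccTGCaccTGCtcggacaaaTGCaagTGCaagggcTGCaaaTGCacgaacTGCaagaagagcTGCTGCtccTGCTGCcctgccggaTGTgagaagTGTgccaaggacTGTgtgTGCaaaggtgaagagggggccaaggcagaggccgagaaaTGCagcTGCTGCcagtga

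Each of the 3 sequences held 20 cysteine codons. They made up 32.8% of the 61 codons of Mt1-201 and of Mt2-201, and 29.4% of the 68 codons of Mt3-201. The coding sequences of Mt1 and Mt2 were identical at 148 of 186 aligned bases (79.6%). Those of Mt1 and Mt3 were identical at 66.2% and those of Mt2 and Mt3 at 67.6% of 207 aligned positions. Each transcript had 3 exons, and the coding part ran over all of them. The longest run of bases shared by any pair of the transcripts was 27, against a read length of 75. No stretch of 75 bases of the 3 transcripts was found in a GENCODE transcript of another gene, so a full-length read could be told apart between the members. Even so, 6 of the 12 counts of Mt1, 7 of Mt2 and 5 of Mt3 were not whole numbers, as multi-mapping and overlapping reads had been counted as fractions.

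The promoters are shown because metal response elements are the best known feature of this family. The 250 bases before the annotated start are from RefSeq (GRCm38.p6, plus strand), at chr8:94172368-94172617 for Mt2 and chr8:94152357-94152606 for Mt3. For Mt1 only the 30 bases around a core are given, at chr8:94179054-94179083, because the window used lies mostly within the gene as annotated in the count table, which begins at 94178883. Capitals mark the core of the metal response element, TGCACNC or TGCGCNC, on either strand.
Mt1: gcggtcccgctgTGCACACtggcgctccag
Mt2: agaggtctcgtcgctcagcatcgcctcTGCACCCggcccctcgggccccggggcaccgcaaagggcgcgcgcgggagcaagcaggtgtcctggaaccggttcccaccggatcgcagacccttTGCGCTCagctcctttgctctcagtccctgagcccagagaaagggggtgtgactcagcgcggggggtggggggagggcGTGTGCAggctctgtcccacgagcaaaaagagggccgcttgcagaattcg
Mt3: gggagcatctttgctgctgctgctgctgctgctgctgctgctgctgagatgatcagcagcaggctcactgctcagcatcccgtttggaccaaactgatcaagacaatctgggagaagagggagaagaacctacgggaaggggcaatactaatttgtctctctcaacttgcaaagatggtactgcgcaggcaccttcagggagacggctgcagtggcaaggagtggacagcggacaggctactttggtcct

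The search covered the window from 250 bases before to 50 bases after the start. Of the 32851 mouse promoters of this length, 25.7% held at least 1 such core. The Mt2 window held 4, a number reached by 0.517% of promoters, and the Mt1 window held 3, a number reached by 1.97%. In Mt1 the cores lay at -23 to -17 and, after the start, at 3 to 9 and 21 to 27. In Mt2 they lay at -223 to -217, -128 to -122, -50 to -44 and 5 to 11. The Mt3 window held 1 core, at 28 to 34, and so did the Mt4 window. The Mt2 window also held the antioxidant response element core TGACNNNGC at -79 to -71, which 12.4% of promoters have. The STAT pair TTCNNNGAA, the full palindromic glucocorticoid response element and the E-box CACGTG were not matched in the 3 windows, and 8.3%, 0.00913% and 7.15% of promoters held them. TATAAA was not matched there either (13.6% of promoters), but it stood inside each annotated first exon, 101, 95 and 87 bases before the start codon in Mt1-201, Mt2-201 and Mt3-201. It began at base 129, 90 and 107 of these transcripts, so the windows and the printed bases ended before it. Between the annotated start of these transcripts and TATAAA there were 4 cores in Mt1-201, 3 in Mt2-201 and 3 in Mt3-201. Some of these are among those already counted. The lower count of Mt3 thus held for the window searched and not for the bases up to TATAAA. These matches describe letters only. Binding of MTF-1 was not measured.

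Levels of the members were compared per length, as CPM per kilobase. With the length of all annotated exons, which is 961 bases for Mt1, 556 for Mt2 and 538 for Mt3, the mean over 12 libraries was 226 ± 69.3 (SD) for Mt1, 270 ± 87.3 for Mt2 and 264 ± 41.1 CPM per kilobase for Mt3. They ranked 148, 116 and 121 among the 20155 genes. With the length of the first transcript (549, 511 and 536 bases), the means were 396 for Mt1 (range 217 to 676), 294 for Mt2 (135 to 507) and 265 CPM per kilobase for Mt3 (202 to 331). The order of the members thus turned with the transcript model. On either length the ranges of the 3 members overlapped.

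Mt1 was highest in Plekhg5+/+ SOD1-G93A mice. It measured 163, 166 and 201 CPM in the Plekhg5+/+ libraries (177 ± 21.1, SD, n = 3), and 232, 280 and 371 CPM in the Plekhg5+/+ SOD1-G93A libraries (295 ± 70.8). The Plekhg5-/- libraries spread from 119 over 196 to 280 CPM (198 ± 80.6), and the Plekhg5-/- SOD1-G93A libraries lay close together at 195, 199 and 208 CPM (201 ± 6.88). All 3 Plekhg5+/+ SOD1-G93A libraries were above all Plekhg5+/+ and all Plekhg5-/- SOD1-G93A libraries. They overlapped with the Plekhg5-/- libraries, the highest of which was about as high as the middle one of them.

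Mt2 showed the same order of genotypes at its top, with wider spreads. It measured 107, 130 and 154 CPM in Plekhg5+/+ (130 ± 23.9), and 150, 179 and 259 CPM in Plekhg5+/+ SOD1-G93A libraries (196 ± 56.6). It measured 68.9, 125 and 205 CPM in Plekhg5-/- (133 ± 68.2), and 130, 134 and 160 CPM in Plekhg5-/- SOD1-G93A libraries (142 ± 16.3). The lowest value of the Plekhg5+/+ SOD1-G93A mice lay below the highest of each other genotype, so that no pair of genotypes was separated.

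Mt3 varied least. It measured 125, 125 and 159 CPM in Plekhg5+/+ (136 ± 19.6), and 158, 174 and 177 CPM in Plekhg5+/+ SOD1-G93A libraries (170 ± 10.3). It measured 108, 129 and 158 CPM in Plekhg5-/- (132 ± 25.1), and 127, 130 and 135 CPM in Plekhg5-/- SOD1-G93A libraries (131 ± 4.01). The 3 Plekhg5+/+ SOD1-G93A libraries were above the 3 Plekhg5-/- SOD1-G93A libraries, and the lowest of them was level with the highest Plekhg5+/+ and Plekhg5-/- library. In each gene the means of Plekhg5+/+, Plekhg5-/- and Plekhg5-/- SOD1-G93A mice differed by less than the SD between the Plekhg5-/- mice. As RNA of whole tissue was measured, fewer cells of a type and less RNA per cell cannot be told apart.

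**Figure D1:**
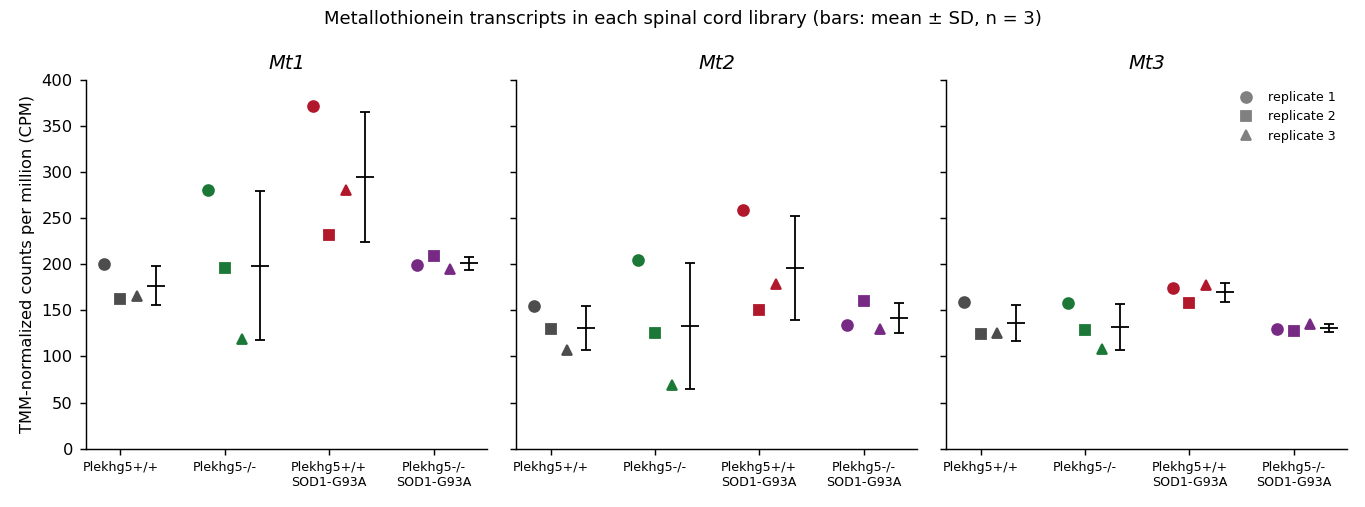
TMM-normalized CPM of Mt1, Mt2 and Mt3 (vertical axis) in the 4 genotypes, with 1 point per mouse (circle, square and triangle for replicates 1, 2 and 3) and the mean ± SD of 3 mice beside them. The 3 Plekhg5+/+ SOD1-G93A libraries lie at 232 to 371 CPM for Mt1, above the 163 to 201 CPM of the Plekhg5+/+ libraries, while the Plekhg5-/- libraries spread from 119 to 280 CPM.

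In Plekhg5+/+ SOD1-G93A against Plekhg5+/+ mice, none of the 3 members passed the threshold of an adjusted p of 0.05 (edgeR, Benjamini-Hochberg over 20155 genes), which 2.47% of genes passed. The fitted fold of Mt1 was 1.67, with a 95% interval of 1.13 to 2.47 (log2 fold change 0.74 ± 0.26, SE; adjusted p = 0.156, edgeR). The fold of Mt2 was 1.50, with an interval of 0.893 to 2.53 (log2 fold change 0.59 ± 0.34; adjusted p = 0.403, edgeR). The fold of Mt3 was 1.25, with an interval of 1.04 to 1.50 (log2 fold change 0.32 ± 0.12; adjusted p = 0.192, edgeR). Unadjusted, Mt1 and Mt3 were thus under 0.05, as were 18.2% of all genes tested. Mt1 was higher without overlap, as were 11.6% of genes, and Mt2 and Mt3 overlapped. The exact permutation test of 3 against 3 mice, which cannot go below 0.1, gave 0.1 for Mt1, and 0.2 for Mt2 and for Mt3. DESeq2 called none of the members either. Without the first Plekhg5+/+ SOD1-G93A library, which was the highest for Mt1 and Mt2, the log2 fold change of Mt1 was 0.54 (adjusted p = 0.455, edgeR) and that of Mt2 was 0.33 (adjusted p = 0.745, edgeR). The SE of Mt1 also depended on libraries outside the comparison. Without the third Plekhg5-/- library Mt1 had 0.74 ± 0.17 (SE; adjusted p = 0.057, edgeR). With only the 2 genotypes fitted it had 0.72 ± 0.16 (adjusted p = 0.0974, edgeR), and neither value passed the threshold.

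In Plekhg5-/- SOD1-G93A against Plekhg5-/- mice, where the same transgene was compared without Plekhg5, the 3 members stood near a fold of 1. The fold was 1.01 for Mt1 (95% interval 0.685 to 1.50), 1.06 for Mt2 (0.634 to 1.79) and 0.991 for Mt3 (0.823 to 1.19). None was called, with adjusted p of 0.986 to 0.999 (edgeR), and 0.00496% of genes were. The fold of Mt2 seen with Plekhg5 (1.50) lay inside its interval here, and those of Mt1 (1.67) and Mt3 (1.25) lay above theirs. The difference between both effects is tested as an interaction below. Averaged over both Plekhg5 genotypes, the fold with the transgene was 1.30 for Mt1 (0.986 to 1.71), 1.26 for Mt2 (0.876 to 1.83) and 1.11 for Mt3 (0.975 to 1.27). None passed the threshold (adjusted p = 0.370, 0.591 and 0.469, edgeR), which 1.22% of genes did, 1.14% as higher. An unadjusted p under 0.05 was found for none of the members and for 14.7% of genes (edgeR). The exact permutation test within Plekhg5 genotypes gave 0.105, 0.175 and 0.155, where 0.005 is the smallest value it can give.

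Loss of Plekhg5 in mice without the transgene gave folds of 1.12 for Mt1 (0.760 to 1.66), 1.02 for Mt2 (0.607 to 1.71) and 0.968 for Mt3 (0.804 to 1.16). None was called, with adjusted p of 0.997 to 1.00 (edgeR), and 0.0298% of genes were.

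In Plekhg5-/- SOD1-G93A against Plekhg5+/+ SOD1-G93A mice, which share the Plekhg5+/+ SOD1-G93A libraries with the first comparison, the 3 fitted folds were below 1. Mt3 had the narrowest interval, with a fold of 0.770 (0.639 to 0.926; log2 fold change -0.38 ± 0.12, SE; adjusted p = 0.468, edgeR). The fold of Mt1 was 0.682 (0.461 to 1.01; log2 fold change -0.55 ± 0.26; adjusted p = 0.577, edgeR) and that of Mt2 was 0.723 (0.430 to 1.21; adjusted p = 0.678, edgeR). None of the members was called here, and 0.0347% of genes were. An unadjusted p under 0.05 was found for Mt3 and for 8.64% of genes. Mt1 and Mt3 were lower without overlap, as were 10% of genes, and the exact permutation test gave 0.1 for both, the smallest value possible, and 0.2 for Mt2. Without the first Plekhg5+/+ SOD1-G93A library the log2 fold change was -0.35 for Mt1 (adjusted p = 0.781, edgeR), -0.21 for Mt2 (adjusted p = 0.890, edgeR) and -0.36 for Mt3 (adjusted p = 0.776, edgeR).

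Markers of several cell types stood apart in the same comparison, although none was called (edgeR). At an unadjusted p under 0.05, 11 of 12 microglia markers (median log2 fold change -0.83) and 5 of 6 red cell genes (median -0.90) were lower. So were 3 of 12 astrocyte (median -0.12), 3 of 10 oligodendrocyte (-0.18) and 2 of 8 ependymal markers (-0.18), against 5.05% of all genes. Higher at this level were 9 of 12 endothelial (median 0.48), 4 of 12 neuron (0.14), 4 of 10 motoneuron (0.24) and 3 of 8 meningeal fibroblast markers (0.60), against 3.59% of all genes. Their part in the levels of Mt1, Mt2 and Mt3 was not tested.

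Whether the transgene effect differed between the Plekhg5 genotypes was tested as an interaction. It was -0.72 ± 0.36 (SE) on the log2 scale for Mt1 (adjusted p = 0.572, edgeR), -0.50 ± 0.48 for Mt2 (adjusted p = 0.724, edgeR) and -0.33 ± 0.17 for Mt3 (adjusted p = 0.585, edgeR). The 95% intervals reached from -1.52 to 0.08, from -1.56 to 0.56 and from -0.71 to 0.05. A difference of the transgene effect between the Plekhg5 genotypes was therefore not shown for any member. The values rested on single libraries. Without the first Plekhg5-/- library the interaction was -0.38 for Mt1, -0.03 for Mt2 and -0.17 for Mt3. Without the third Plekhg5-/- library it was -0.98 for Mt1 and -0.81 for Mt2, and without the first Plekhg5+/+ SOD1-G93A library it was -0.24 for Mt2. The adjusted p lay between 0.319 and 0.994 (edgeR) over all libraries left out in turn. Over all genes edgeR called 0 interactions (0% of genes), with 1824 genes (9.05%) at an unadjusted p under 0.05, and DESeq2 called 111 with and 98 without a prior, none of them a member.

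**Figure D2:**
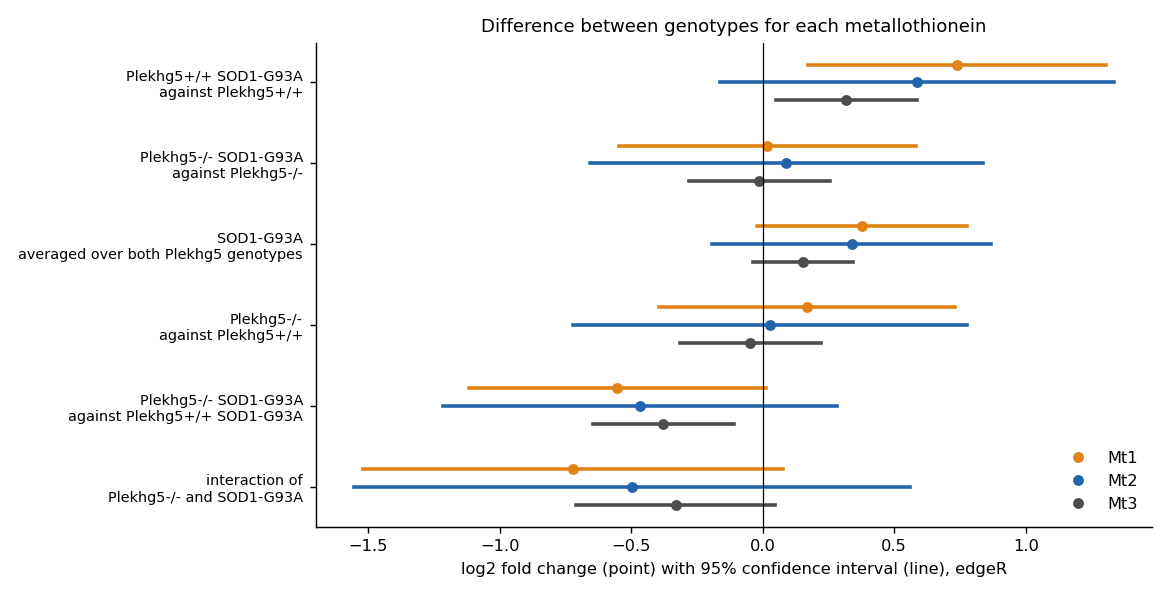
Log2 fold change of Mt1, Mt2 and Mt3 (points) with the 95% confidence interval (lines) in the 6 comparisons, from the edgeR fit of 12 libraries. In Plekhg5+/+ SOD1-G93A against Plekhg5+/+ mice the intervals of Mt1 (0.17 to 1.30) and Mt3 (0.05 to 0.59) lie above 0 before adjustment for the number of genes, and in Plekhg5-/- SOD1-G93A against Plekhg5-/- mice all 3 span 0.

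Mt1 and Mt2 differed between mice of 1 genotype more than most genes of comparable or higher level. The SD within genotypes was 0.36 for Mt1, 0.47 for Mt2 and 0.18 for Mt3 on the log2 CPM scale, and the median of the 4828 genes with a mean of at least 50 CPM was 0.09. Of these genes, 27 had a larger SD than Mt1, 9 a larger one than Mt2 and 493 a larger one than Mt3. The spread was not equal between the genotypes. For Mt1 it was 0.62 in Plekhg5-/- and 0.05 in Plekhg5-/- SOD1-G93A mice, and for Mt2 it was 0.79 and 0.16, as SD of log2 CPM of 3 mice each. Mt3 also spread most in Plekhg5-/- mice, with 0.27, and least in Plekhg5-/- SOD1-G93A mice, with 0.04.

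**Figure D3:**
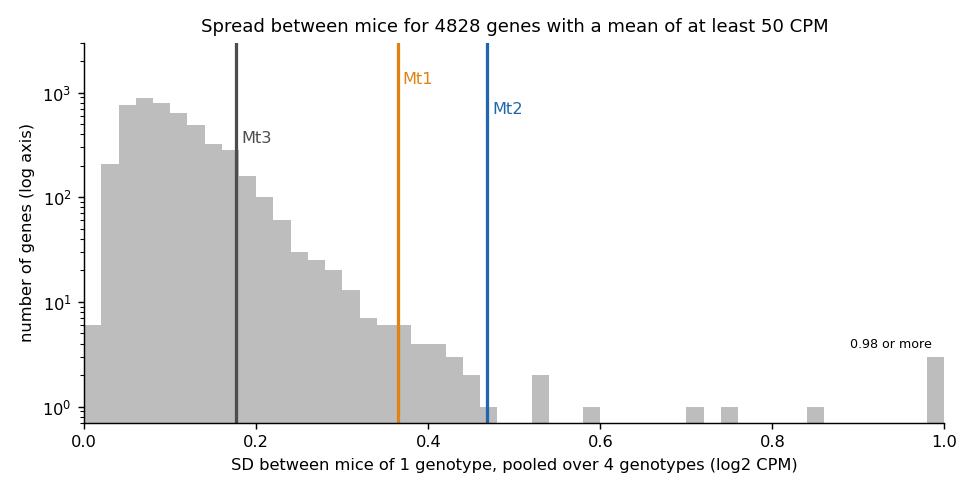
Number of genes (vertical axis, log scale) by the SD of log2 CPM between mice of 1 genotype, pooled over the 4 genotypes (horizontal axis), for 4828 genes with a mean of at least 50 CPM, where the last bar holds all genes at 0.98 or more. The lines mark Mt3 at 0.18, Mt1 at 0.36 and Mt2 at 0.47, and the median gene lies at 0.09.

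The members varied together. Over the 12 mice, the log2 CPM of Mt1 and Mt2 had a Pearson correlation of 0.96 and a Spearman correlation of 0.94 (permutation p = 0.0001 for both, which was set as the lower limit; adjusted p = 0.0003 and 0.0006). Mt1 and Mt3 had 0.89 and 0.86, and Mt2 and Mt3 had 0.85 and 0.79 (permutation p of 0.0001 to 0.00322, adjusted p of 0.0003 to 0.00483). With the genotype means removed, Mt1 and Mt2 still had 0.98 and 0.92 (permutation p within genotypes of 0.00219 and 0.00286, adjusted 0.00328 and 0.00483). Mt1 and Mt3 had 0.86 and 0.76 (permutation p of 0.0177 and 0.0389, adjusted 0.0213 and 0.0467). Mt2 and Mt3 had 0.83 and 0.62, of which the Spearman value did not pass the threshold (permutation p of 0.0402 and 0.105). These 6 correlations were adjusted together. Without the 2 libraries farthest from the median of the first gene, Pearson's r of the values with genotype means removed was 0.92 for Mt1 and Mt2, 0.60 for Mt1 and Mt3 and 0.53 for Mt2 and Mt3, so that the relation to Mt3 rested in part on those libraries.

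The ratio of Mt1 to Mt2 accordingly moved little. It was 1.47 ± 0.14 over the 12 libraries (CPM of Mt1 over CPM of Mt2, SD), with a range of 1.25 to 1.73, and its means by genotype lay between 1.37 and 1.55. The ratio of Mt1 to Mt3 ranged more widely, from 1.10 to 2.14, with a mean of 1.30 ± 0.0319 in Plekhg5+/+ and 1.73 ± 0.358 in Plekhg5+/+ SOD1-G93A mice.

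**Figure D4:**
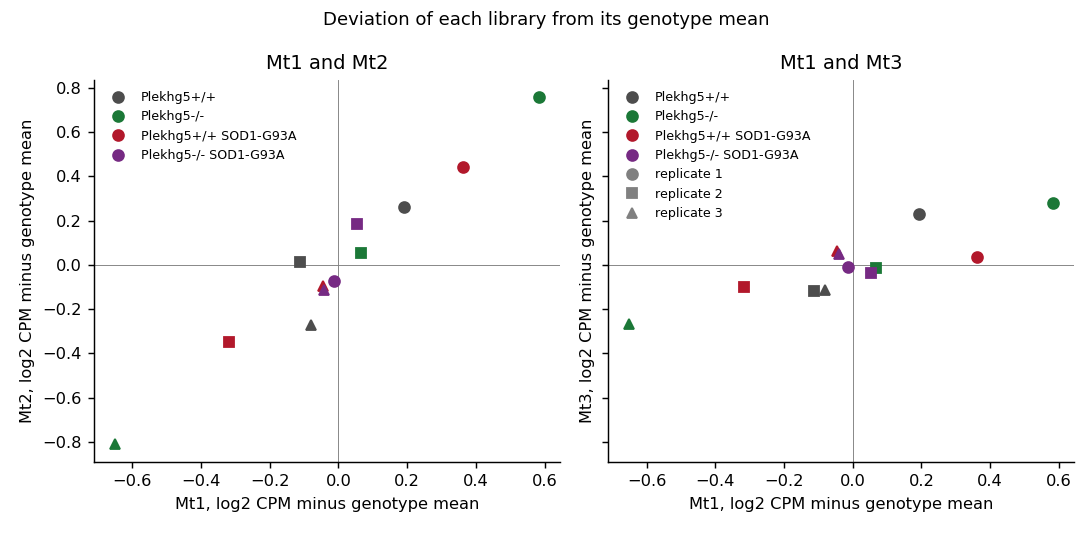
Log2 CPM minus the mean of the genotype for Mt1 (horizontal axis) against Mt2 (left) and Mt3 (right), with 1 point per mouse, colours for genotypes and circle, square and triangle for replicates 1, 2 and 3. Mt1 and Mt2 lie along a line from the third Plekhg5-/- library (-0.65 and -0.81) to the first one (0.58 and 0.76), and Mt3 follows over a smaller range (-0.27 to 0.28).

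Libraries also differed in the level of short transcripts as a whole. A short-transcript index, defined after the values were seen, was the median deviation of 114 other protein-coding genes with under 700 bases of exon and a mean of at least 20 CPM. It was 0.24 in the first Plekhg5+/+, 0.28 in the first Plekhg5-/- and 0.23 in the third Plekhg5+/+ SOD1-G93A library on the log2 scale, and between -0.15 and -0.02 in the other 9 libraries. In Plekhg5+/+ and Plekhg5-/- mice the library with the high index had the highest value of all 3 members, and in Plekhg5+/+ SOD1-G93A mice the highest value of Mt3 only. No Plekhg5-/- SOD1-G93A library had a high index, and its part in the spread of the members was not tested beyond the following fits. With the index as a covariate, the log2 fold change of Mt3 in Plekhg5+/+ SOD1-G93A against Plekhg5+/+ mice was 0.28 ± 0.06 (SE) and passed the threshold (adjusted p = 0.024, edgeR). In the 9 libraries with a low index it was 0.40 ± 0.08 (adjusted p = 0.0466, edgeR). Mt1 stayed at 0.69 and 0.87 (adjusted p = 0.12 and 0.154, edgeR) and Mt2 at 0.54 and 0.78 (adjusted p = 0.347 and 0.277, edgeR). With the covariate the same comparison called 1432 genes in place of 498, and in the 9 libraries it called 246.

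**Figure D5:**
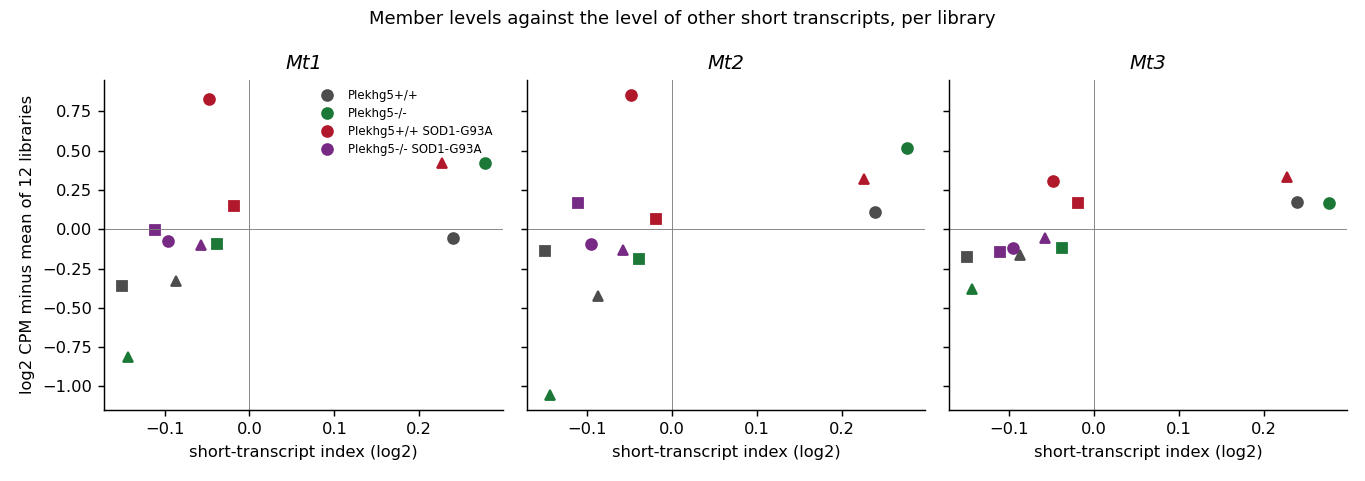
Log2 CPM of Mt1, Mt2 and Mt3 minus the mean of the 12 libraries (vertical axes) against the short-transcript index of each library (horizontal axis, log2), with colours for genotypes and circle, square and triangle for replicates 1, 2 and 3. Of the libraries, 3 stand apart at 0.23 to 0.28, and the first Plekhg5+/+ SOD1-G93A library is the highest for Mt1 and Mt2 at an index of -0.05.

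Of all genes with a mean of at least 1 CPM (16609 genes), those whose log2 CPM followed Mt1 most closely over the 12 libraries were Selplg (Pearson r = 0.97), which encodes the adhesion molecule PSGL-1, Mt2 (0.96), the histone deacetylase gene Hdac1 (0.94), Epb41l2 (0.94) and 4933412E12Rik (0.94). For Mt2 they were Mt1, the sulfatase gene Sulf2 (0.96), the peroxisomal transporter gene Abcd3 (0.96), Calml4 (0.95) and the syndecan gene Sdc4 (0.95). For Mt3 they were Gm13573 (0.96), the vitamin K reductase gene Vkorc1 (0.96), Dhrs4 (0.95), Gm8730 (0.95) and Kctd14 (0.95). Apart from Mt1 and Mt2 themselves, no gene was among the 5 closest of more than 1 member. This rested on the cut at 5, as Selplg ranked 9 for Mt2 (0.91) and Dhrs4 ranked 10 for Mt1 (0.93). With genotype means removed, Mt1 and Mt2 were closest to each other (0.98), and Abcd3 was among the 5 closest of both (0.96 and 0.96). Those closest to Mt3 were then Gm9794 (0.99), Tmem14c (0.98), Kctd14 (0.98), Ciao2a (0.98) and Gm11263 (0.98). Mt1 (0.86) and Mt2 (0.83) followed Mt3 less closely than these genes, so for Mt3 the covariation was not particular to the family. The values of the closest genes are among the highest of 16609 and are a description over 12 libraries. The libraries differ in genotype and depth, so differences between genotypes enter the values as measured.

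Few genes of zinc transport passed the test. Of the ZIP family, which brings zinc into the cytosol, 1 of 13 tested genes was called with the transgene averaged over both Plekhg5 genotypes. This was Slc39a1, which encodes ZIP1 of the plasma membrane, with a log2 fold change of 0.40 ± 0.08 (SE; adjusted p = 0.0354, edgeR). It was also called in Plekhg5+/+ SOD1-G93A against Plekhg5+/+ mice (0.60 ± 0.11, adjusted p = 0.0198, edgeR). The median of the 13 log2 fold changes was 0.06, against -0.01 for all genes. Of the ZnT exporters 0 of 9 tested genes passed the threshold (edgeR) and 0 were under an unadjusted p of 0.05, against 14.7% of all genes in the averaged comparison. Their summed level was 407 to 422 CPM in all 12 libraries. Slc30a4 (0.10 ± 0.04, adjusted p = 0.349, edgeR) and Slc30a6 (0.13 ± 0.07, adjusted p = 0.445, edgeR) had the smallest p.

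Of 5 genes of metal-responsive transcription, 0 were called and 0 had an unadjusted p under 0.05 (edgeR), against 14.7% of all genes in the averaged comparison. Mtf1, which encodes MTF-1 itself, had a log2 fold change of -0.10 ± 0.06 (SE) with the transgene averaged over both Plekhg5 genotypes (adjusted p = 0.478, edgeR). Mtf2, a Polycomb protein named for metal response elements, had -0.08 ± 0.06 (adjusted p = 0.643, edgeR).

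Of 18 genes of copper handling, 0 were called in the averaged comparison (edgeR). An unadjusted p under 0.05 was found for 14.7% of all genes and for 1 of these 18. This was Steap3, a metalloreductase of endosomes, with a log2 fold change of 0.53 ± 0.14 (SE; adjusted p = 0.0808, edgeR). Sod3, the extracellular superoxide dismutase, had 0.19 ± 0.10 (adjusted p = 0.380, edgeR). Of 11 genes of iron handling, 0 passed in the averaged comparison (edgeR). At an unadjusted p under 0.05, 3 were higher, against 14.7% of all genes in either direction. Ftl1, the ferritin light chain, had 0.39 ± 0.09 (adjusted p = 0.0543, edgeR) and was called in Plekhg5+/+ SOD1-G93A against Plekhg5+/+ mice, with 0.57 ± 0.13 (adjusted p = 0.0351, edgeR). The iron exporter Slc40a1 had 0.39 ± 0.13 (adjusted p = 0.161, edgeR).

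Other known inducers of Mt1 and Mt2 are oxidative stress, glucocorticoids and cytokines. Of 18 targets of Nrf2, the factor of the antioxidant response, 0 were called in the averaged comparison (edgeR). At an unadjusted p under 0.05, 1 was higher, against 14.7% of all genes in either direction. The heme oxygenase gene Hmox1 had a log2 fold change of 0.58 ± 0.21 (SE; adjusted p = 0.202, edgeR), and Osgin1 had 0.43 ± 0.20 (adjusted p = 0.347, edgeR). Of 14 glucocorticoid-responsive genes, 0 were called in the averaged comparison (edgeR), and 2 of 14 fitted values were above 0. At an unadjusted p under 0.05, 0 were higher and 4 were lower, against 14.7% of all genes in either direction. Their median log2 fold change was -0.33, against -0.01 for all genes. Fkbp5, a chaperone of the glucocorticoid receptor, had -0.44 ± 0.13 (adjusted p = 0.117, edgeR), and Tsc22d3, which encodes GILZ, had -0.38 ± 0.13 (adjusted p = 0.172, edgeR).

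Of 18 genes of the interleukin-6 family and the STAT3 response, 16 had fitted values above 0 in the averaged comparison. Their median log2 fold change was 0.44, against -0.01 for all genes. At an unadjusted p under 0.05, 10 were higher and 1 was lower (edgeR), and 14.7% of all genes were under it in either direction. The adjusted threshold was passed by 2, both higher. These were Timp1, an inhibitor of metalloproteinases (log2 fold change 2.25 ± 0.35, SE; adjusted p = 0.0239, edgeR), and Osm, the cytokine oncostatin M (1.66 ± 0.29, adjusted p = 0.0282, edgeR). Both had low levels. Osm stood at 0.162 ± 0.0198 CPM in Plekhg5+/+ and 0.743 ± 0.291 CPM in Plekhg5+/+ SOD1-G93A mice (SD, n = 3). Timp1 stood at 0.783 ± 0.197 CPM in the former and spread from 3.56 to 12.7 CPM in the latter. In Plekhg5+/+ SOD1-G93A against Plekhg5+/+ mice they rose too, with 3.08 ± 0.49 (adjusted p = 0.0140, edgeR) and 2.17 ± 0.38 (adjusted p = 0.0165, edgeR). There 3 of the 18 were called higher and 1 lower, and the other genes called were Serpina3n (2.12 ± 0.43, adjusted p = 0.0392, edgeR) and Lifr (-0.36 ± 0.06, adjusted p = 0.0155, edgeR), which were named after their values were seen. The summed level of these 18 genes overlapped between Plekhg5+/+ (801 to 856 CPM) and Plekhg5+/+ SOD1-G93A libraries (835 to 1361 CPM).

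Astrocytes are the main known source of metallothioneins in this tissue. The summed level of 12 astrocyte markers was 9264 to 9388 CPM in Plekhg5+/+, 9030 to 10872 in Plekhg5-/-, 10911 to 14204 in Plekhg5+/+ SOD1-G93A and 10147 to 10526 CPM in Plekhg5-/- SOD1-G93A libraries. Of the 12, 2 were called in Plekhg5+/+ SOD1-G93A against Plekhg5+/+ mice, both higher, against 2.09% of all genes. They were Gfap, the filament of reactive astrocytes (log2 fold change 1.23 ± 0.22, SE; adjusted p = 0.0198, edgeR), and the transcription factor Sox9 (0.81 ± 0.16, adjusted p = 0.0206, edgeR). The other 10 did not pass, and the median of the 12 was 0.11, against -0.00 for all genes.

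Relative to the summed astrocyte markers, Mt1 was 0.35 ± 0.14 (SE, log2) higher in Plekhg5+/+ SOD1-G93A than in Plekhg5+/+ mice (exact permutation p = 0.2), Mt2 was 0.20 ± 0.20 higher (exact permutation p = 0.5) and Mt3 was -0.04 ± 0.16 (exact permutation p = 0.9). Without Gfap in the sum the differences were 0.60, 0.44 and 0.20 (exact permutation p = 0.1, 0.2 and 0.3). The difference of Mt3 thus turned its sign with 1 marker, and that of Mt1 changed by over 1.5 times. Whether the astrocyte markers take part in the levels of the members was not tested.

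Microglia markers rose with the transgene in Plekhg5+/+ mice. The 12 microglia markers summed to 495 to 577 CPM in Plekhg5+/+ and 961 to 1874 CPM in Plekhg5+/+ SOD1-G93A libraries. Between these genotypes 11 of 12 were called higher (2.09% of all genes were), and the median log2 fold change was 1.34. In Plekhg5-/- SOD1-G93A against Plekhg5-/- mice 0 of 12 were called (edgeR). There the median was 0.25, and 0 were higher at an unadjusted p under 0.05, against 3.27% of all genes. The interaction was below 0 at this level for 11 of 12, against 9.05% of all genes in either direction, and 0 were called (edgeR). In the averaged comparison 6 of 12 were called, among them the receptor Csf1r (0.54 ± 0.10, SE; adjusted p = 0.0354, edgeR), Itgam (0.66 ± 0.12, adjusted p = 0.0311, edgeR), the adaptor Tyrobp (1.05 ± 0.19, adjusted p = 0.0320, edgeR) and the fractalkine receptor Cx3cr1 (0.67 ± 0.13, adjusted p = 0.0388, edgeR). Of the 10 motoneuron markers, Chodl fell by 0.68 on the log2 scale (adjusted p = 0.0337, edgeR), and the summed level was 435 to 526 CPM in Plekhg5+/+ SOD1-G93A against 550 to 560 CPM in Plekhg5+/+ libraries. The 6 red cell genes summed to 700 to 1232 CPM in Plekhg5+/+ and 959 to 2078 CPM in Plekhg5+/+ SOD1-G93A libraries, which overlapped. Between these genotypes 0 of 6 were called and 1 was at an unadjusted p under 0.05 (edgeR), against 18.2% of all genes. No defining marker of the 9 cell types was at 0 in all libraries. The part of these cells in the levels of Mt1, Mt2 and Mt3 was not tested.

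The remaining marker lists had few calls in the averaged comparison. They were 0 of 10 for oligodendrocytes, 0 of 12 for neurons, 0 of 12 for endothelium, 0 of 8 for ependyma and 1 of 8 for meningeal fibroblasts, where Col1a1 rose (log2 fold change 0.79 ± 0.14, SE; adjusted p = 0.0282, edgeR). The counts at an unadjusted p under 0.05 were 2, 2, 1, 1 and 5 (edgeR), against 14.7% of all genes. The smallest p were those of Mobp (-0.19 ± 0.06) and Opalin (0.21 ± 0.09) for oligodendrocytes, Nefl (-0.24 ± 0.06) and Nefm (-0.27 ± 0.08) for neurons, Egfl7 (0.16 ± 0.07) and Vwf (0.43 ± 0.20) for endothelium, and Rarres2 (0.35 ± 0.12) and Cfap126 (0.21 ± 0.13) for ependyma, all as log2 fold changes with SE.

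The averages of some of these lists cover unlike values in the Plekhg5 genotypes. The 8 meningeal fibroblast markers had a median log2 fold change of 0.06 in Plekhg5+/+ SOD1-G93A against Plekhg5+/+ mice. In Plekhg5-/- SOD1-G93A against Plekhg5-/- mice it was 0.86. Col1a1 had 0.43 ± 0.19 (SE; adjusted p = 0.272, edgeR) in the former and 1.15 ± 0.19 (adjusted p = 0.214, edgeR) in the latter. Opalin, a myelin gene, rose in Plekhg5+/+ SOD1-G93A against Plekhg5+/+ mice (log2 fold change 0.76 ± 0.13, SE; adjusted p = 0.0165, edgeR) and had -0.34 ± 0.13 in Plekhg5-/- SOD1-G93A against Plekhg5-/- mice (adjusted p = 0.866, edgeR). Its interaction was -1.10 ± 0.19 (adjusted p = 0.329, edgeR). Of the endothelial markers, Ly6c1 fell in Plekhg5+/+ SOD1-G93A against Plekhg5+/+ mice (-0.56 ± 0.12, adjusted p = 0.0361, edgeR), where the median of the 12 was -0.15. In Plekhg5-/- SOD1-G93A against Plekhg5-/- mice 0 of the 12 were called (edgeR), 12 of 12 fitted values were above 0 with a median of 0.32, and 6 had an unadjusted p under 0.05 as higher, against 3.27% of all genes.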

How the data were processed

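Whole spinal cord RNA of 12 mice was sequenced as stranded, single-end reads of 75 bases. As the authors describe, reads were demultiplexed with bcl2fastq 2.20.0.422, trimmed with Cutadapt 2.4, aligned with STAR 2.7.2b to GRCm38.p6 with the human SOD1 sequence added, and counted by strand per RefSeq gene with featureCounts 1.6.4. The deposited values are estimated counts, as the authors counted multi-mapping and overlapping reads as fractions, and they were not normalized. Genotypes were taken from the sample labels. Nothing in the labels ties replicates of different genotypes together.

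The counts were rounded, filtered with filterByExpr (20155 of 45906 genes kept), normalized by TMM and fitted with edgeR 4.0.16 (R 4.3.3; robust quasi-likelihood, 12 libraries, a mean per genotype, 6 comparisons, Benjamini-Hochberg threshold 0.05). CPM are TMM-normalized, and log2 CPM used a prior count of 2. The edgeR fit was also run on simulated counts with 200 changed genes and the same spread in all genotypes. That simulation held neither the unequal spread between genotypes nor the short-transcript differences between libraries described above. Single values were compared by two-sided exact permutation tests, and correlations by 100000 permutations. DESeq2 1.42.0 and further settings served as alternatives, and the short-transcript index was added after the data were seen. With 30415643 to 38743628 counts per library, the spread between mice and not the counting error limited the precision. The p-values of edgeR rest on an estimate of this spread that the 12 libraries share, with 3 mice per genotype. They thus also depend on mice outside a comparison.

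The members and gene lists were chosen with earlier results of these data known. Named were the members, genes that check the labels, neighbours on the chromosome, up to 4 genes per list with the smallest p among those called in the averaged SOD1-G93A comparison (or, with none called, the 2 of smallest p), and the 5 genes closest to each member. Genes called only in other comparisons were named after their values were seen.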

Additional observations from a re-analysis of the deposited data

How the results depend on the processing

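None of the 3 members was called when any of the 12 libraries was left out, nor with DESeq2, its size factors, no filter, no robust option, counts rounded down, an indicator of Y-linked transcripts or only the 2 genotypes compared. Mt3 was called only with the short-transcript index as covariate (0.28 in Plekhg5+/+ SOD1-G93A against Plekhg5+/+ mice and 0.20 averaged, log2) and, in the first comparison, in the 9 libraries of low index (0.40). Mt1 in that comparison ranged from 0.54 to 0.86 with a library left out (adjusted p 0.057 to 0.455, edgeR), and the prior of DESeq2 shrank it to 0.30. Values near 0 changed sign. For Plekhg5-/- SOD1-G93A against Plekhg5-/-, Mt3 was 0.00034 with the replicate block, 0.0073 with the Y-linked indicator, 0.11 with the index and 0.13 in the 9 libraries. With a library left out it ranged from -0.14 to 0.13, Mt1 from -0.25 to 0.34 and Mt2 from -0.22 to 0.54. For Plekhg5-/- against Plekhg5+/+, Mt2 was -0.044 with the replicate block, -0.093 with the index and -0.28 in the 9 libraries, where Mt1 was -0.062. With a library left out Mt1 ranged from -0.16 to 0.43, Mt2 from -0.42 to 0.34 and Mt3 from -0.20 to 0.078. Relative to astrocyte markers without Gfap, Mt3 was 0.20, and 0.092 averaged. The cause was not tested.

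Genes called in Plekhg5+/+ SOD1-G93A against Plekhg5+/+ mice numbered 498, against 1205 with and 1175 without a prior in DESeq2, 3 with only these genotypes and 1432 with the index. With a library left out they ranged from 2 (without the second Plekhg5+/+ library) to 771. In the averaged comparison they numbered 245, against 827 and 826 with DESeq2, 417 with the block, 412 with the Y-linked indicator and 642 with the index, and 10 to 560 with a library left out. In Plekhg5-/- SOD1-G93A against Plekhg5-/- mice the range was 1 to 44, in Plekhg5-/- against Plekhg5+/+ 4 to 59, in Plekhg5-/- SOD1-G93A against Plekhg5+/+ SOD1-G93A 4 to 113 and for the interaction 0 to 111. Libraries with the same replicate number did not deviate together (correlations of -0.163 to 0.318), so the replicate block rests on the number alone.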
